A study of Mus musculus with 95 samples.

Results

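Drd1, Tac1, Pdyn and Chrm4 are 4 genes that mark the direct-pathway neurons of the striatum, and they were followed here in the cerebral cortex of mice. They were chosen by name as the direct-pathway marker genes, with earlier results of these data known, and they are 4 of the 39179 genes in the deposited tables. All 4 had counts in every one of the 95 libraries and passed the filter on low counts in each fit.

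The striatum sends its output through a pair of projection neuron populations, the direct and the indirect pathway. Direct-pathway neurons carry the dopamine receptor D1 (Drd1), which raises cyclic AMP, and the muscarinic receptor M4 (Chrm4), which lowers it. They also make the peptide precursors protachykinin-1 (Tac1, the source of substance P) and prodynorphin (Pdyn, the source of the dynorphins). Cortical neurons use the same genes at lower levels, and a block of dissected cortex lies directly over the striatum. Loss of striatal projection neuron transcripts is a known feature of Huntington's disease models, in which the CAG repeat of huntingtin is expanded.

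The libraries came from heterozygous (Het) knock-in mice of the lines Q20, Q50, Q92 and Q140, named for the length of the repeat, and from wild types (WT). All were on the C57BL/6 strain, of both sexes, at 6 or 10 months. Q20 and Q50 mice were kept with wild types, and the wild types are labelled by the line they were housed with. Q92 and Q140 cages held only mice of that line, by the labels, and no wild types from such cages were analysed here. Each line and age had 8 libraries, 4 of each sex, except for Q140 at 10 months with 7. Q20 and Q50 were therefore set against the wild types housed with their line. These are called cage mates below, although the housing labels name a line and not a cage. Q92 and Q140 were set against the mean of both wild-type groups of their age, 16 libraries. Each line is its own cohort, so the line and the housing cannot be told apart for Q92 and Q140. The labels number the libraries of a group without saying whether every number is another animal. The spread that the p-values measure is thus one between libraries, which may be technical in part.

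The start regions of the 4 genes are shown because 3 of the genes moved together in the results that follow and Chrm4 did not. They are the 250 bases before the RefSeq start in GRCm38.p6, 5′ to 3′ on the strand of the gene. Drd1 lies at chr13:54055659-54055908 on the minus strand, Tac1 at chr6:7554811-7555060 on the plus strand, Pdyn at chr2:129699939-129700188 on the minus strand and Chrm4 at chr2:91921939-91922188 on the plus strand. Capitals mark TGACG on either strand (CGTCA on the other), the core of the cyclic AMP response element.
Drd1: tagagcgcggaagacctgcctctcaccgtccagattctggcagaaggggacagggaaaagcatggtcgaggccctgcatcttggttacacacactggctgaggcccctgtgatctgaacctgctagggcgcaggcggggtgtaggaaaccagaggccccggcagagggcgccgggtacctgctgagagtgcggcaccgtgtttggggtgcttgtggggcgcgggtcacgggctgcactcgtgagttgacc
Tac1: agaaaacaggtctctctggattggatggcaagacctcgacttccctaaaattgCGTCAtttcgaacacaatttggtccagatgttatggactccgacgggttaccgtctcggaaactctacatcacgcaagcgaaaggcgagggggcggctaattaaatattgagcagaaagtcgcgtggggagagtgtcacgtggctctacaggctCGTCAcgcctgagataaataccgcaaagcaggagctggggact
Pdyn: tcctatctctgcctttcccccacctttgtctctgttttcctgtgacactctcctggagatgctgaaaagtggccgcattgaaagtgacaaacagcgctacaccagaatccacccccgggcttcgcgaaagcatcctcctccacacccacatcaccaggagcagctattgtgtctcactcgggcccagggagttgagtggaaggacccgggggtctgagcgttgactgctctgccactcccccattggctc
Chrm4: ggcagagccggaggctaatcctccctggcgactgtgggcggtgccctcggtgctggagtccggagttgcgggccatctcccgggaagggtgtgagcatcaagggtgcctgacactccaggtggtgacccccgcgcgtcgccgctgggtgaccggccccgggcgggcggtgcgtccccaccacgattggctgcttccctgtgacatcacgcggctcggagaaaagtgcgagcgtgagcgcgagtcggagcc
The Tac1 window held 2 copies, both on the minus strand, whose first printed base lay 197 and 43 bases before the start. The other windows held 0 copies, which says only that these letters are not in them. TGACG was present in 17.8% of 32851 mouse promoter windows of the same length. The complete palindrome TGACGTCA was in none of the 4 windows and in 1.55% of all. The windows were rich in G and C, with 64.0% for Drd1, 51.2% for Tac1, 57.2% for Pdyn and 70.0% for Chrm4.

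Library totals lay between 30334161 and 41082838 estimated counts, with a median of 34123230. Mitochondrially encoded genes took 9.08% to 14.7% of the counts, and 2 libraries were above 13%. Sample names carry a code, L1 to L8, whose meaning is not stated, and 9 libraries have names of another form. Levels are given as the authors' FPKM, which is scaled to gene length and depth, so it can be compared between genes. Differences are log2 fold changes ± standard error from edgeR's quasi-likelihood test on the counts, with Benjamini-Hochberg adjusted p over all genes tested. A gene was called changed at an adjusted p under 0.05.

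In wild-type cortex at 6 months Drd1 was more abundant than 47.9% of genes at 0.5 FPKM or more. Tac1 was more abundant than 82.2% of them, with Chrm4 and Pdyn between. Among 14986 genes with a mean of at least 0.5 FPKM at 6 months, Tac1 ranked 2661 from the top, Chrm4 4983, Pdyn 5588 and Drd1 7801. The 16 wild types at 10 months averaged 17.97 ± 10.01 FPKM of Tac1, 12.5 ± 2.47 of Chrm4, 10.3 ± 2.84 of Pdyn and 5.49 ± 2.56 of Drd1 (SD, n = 16). These means pool 2 unlike groups, since Tac1 averaged 10.01 ± 0.760 FPKM in those housed with Q20 and 25.9 ± 8.33 FPKM in those housed with Q50 (SD, n = 8 each). In wild types housed with Q20 Chrm4, at 11.7 ± 1.90 FPKM (SD, n = 8), was therefore above Tac1. The 16 at 6 months averaged 28.6 ± 7.002 FPKM of Tac1, 15.1 ± 1.85 of Chrm4, 13.1 ± 2.22 of Pdyn and 7.87 ± 2.02 of Drd1 (SD, n = 16). Across all 95 libraries Tac1 spanned 6.90 to 53.2 FPKM, a ratio of 7.71, and Drd1 spanned 2.56 to 17.1 FPKM, a ratio of 6.67. Pdyn spanned 6.24 to 18.7 FPKM, a ratio of 3.01, and Chrm4 had the narrowest range, 8.23 to 18.8 FPKM, a ratio of 2.28. When the 12 groups of line and age were ordered by mean level, Drd1, Tac1 and Pdyn all had wild types housed with Q20 at 6 months first. The lowest group was Q92 at 6 months for Drd1 and Tac1 and wild types housed with Q20 at 10 months for Pdyn. No pair of neighbours in the order of any of the 4 genes was further apart than the larger of their SDs.

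**Figure D1:**
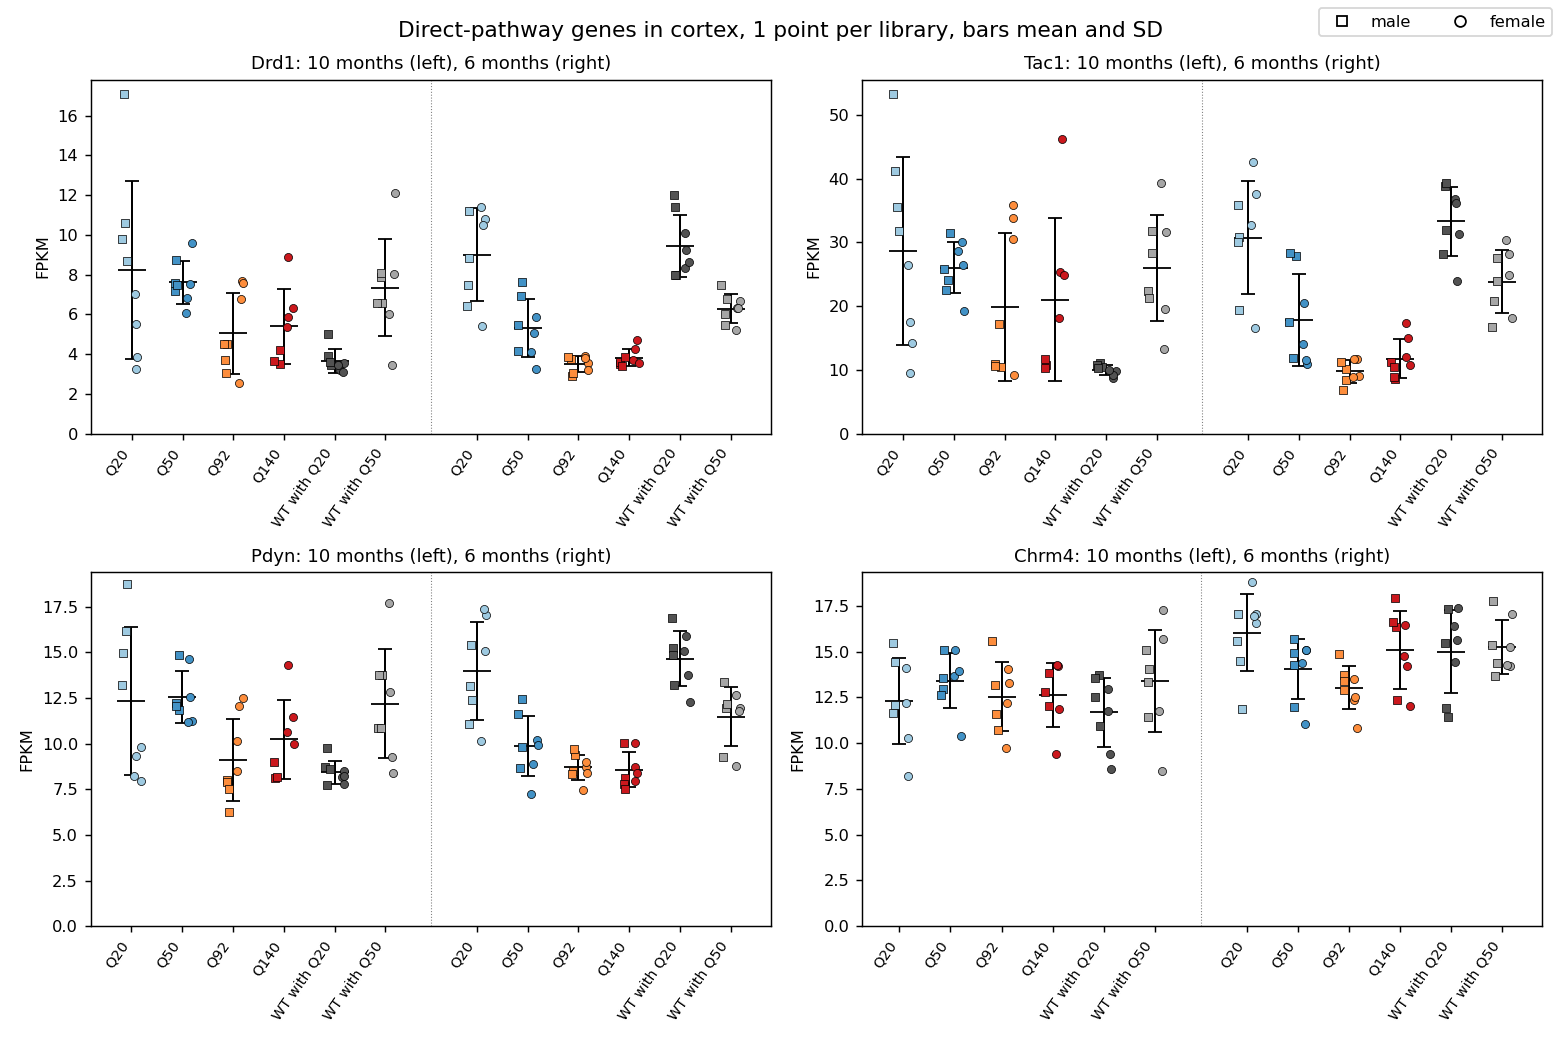
FPKM of Drd1, Tac1, Pdyn and Chrm4 in every library (vertical axes, FPKM from 0) by line and age (horizontal axes), with squares for males, circles for females, and bars for the mean and SD of 8 libraries (7 for Q140 at 10 months). For Drd1 the 10-month wild types housed with Q20 lie between 3.08 and 4.99 FPKM, and all Q92 and Q140 libraries of 6 months lie under the lowest wild type of that age at 5.22 FPKM.

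At 6 months 3 of the 4 genes were lower in Q92 and Q140, the 2 lines with the longest repeats, with larger falls in Tac1 and Drd1 than in Pdyn and no call for Chrm4. Drd1 had 2.90, 3.65 and 3.89 FPKM as the lowest, median and highest of 8 Q92 libraries, against 5.22, 7.72 and 11.99 FPKM in the 16 wild types. Tac1 had 6.90, 9.60 and 11.7 FPKM in Q92 libraries, against 16.8, 28.2 and 39.4 FPKM in wild types. Every Q92 library was below every wild type for both genes. Here and below, how many of all genes separate in this way was not counted. Drd1 fell by 1.12 ± 0.13 on the log2 scale in Q92 (0.459-fold, adjusted p = 8.54e-08, edgeR) and Tac1 fell by 1.48 ± 0.17 (0.358-fold, adjusted p = 2.51e-07). Pdyn had 7.44, 8.61 and 9.72 FPKM in Q92 libraries, against 8.77, 12.9 and 16.9 FPKM in wild types. Here the ranges overlapped, with 5 of 8 Q92 libraries below every wild type, and Pdyn fell by 0.55 ± 0.09 (0.685-fold, adjusted p = 1.54e-05). Chrm4 had 10.9, 13.1 and 14.9 FPKM in Q92 libraries, against 11.4, 15.3 and 17.8 FPKM in wild types. Its log2 difference of -0.20 ± 0.08 did not pass (adjusted p = 0.112, edgeR), although all 8 Q92 libraries were below the wild-type mean. It passed with females alone (-0.32, adjusted p = 0.0319) and with the L code as a factor (-0.23, adjusted p = 0.0286). Thus 3 of 4 genes were called lower, where 4.53% of the 17716 genes tested at 6 months were called lower and 3.3% higher in Q92. In bulk tissue, fewer cells of a type, less RNA per cell and a smaller share of adjoining tissue cannot be told apart.

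Q140 cortex at 6 months gave a like picture, set against the same 16 wild types as Q92. Drd1 had 3.37, 3.66 and 4.70 FPKM as the lowest, median and highest of 8 Q140 libraries, and Tac1 had 8.58, 10.96 and 17.3 FPKM. All 8 Q140 libraries were below every wild type for Drd1, and 7 of 8 for Tac1. Drd1 changed by -1.01 ± 0.12 (adjusted p = 1.75e-06, edgeR), Tac1 by -1.28 ± 0.17 (adjusted p = 9.47e-06) and Pdyn by -0.59 ± 0.09 (adjusted p = 1.71e-05) on the log2 scale. Chrm4, at 12.04, 15.6 and 17.96 FPKM in Q140 libraries, lay across the wild-type range. Its log2 difference was -0.00 ± 0.08, with a 95% interval of -0.15 to 0.15 (adjusted p = 0.998). The share of all genes called lower in Q140 was 2.13%, and 1.39% were called higher. With the 4 female libraries of each group alone none of the 4 genes was called in Q140, with log2 differences of -0.88 for Drd1, -1.08 for Tac1 and -0.52 for Pdyn (adjusted p = 0.0632, 0.109 and 0.121). Set directly against each other at 6 months, Q140 and Q92 differed by 0.11 ± 0.14 in Drd1, 0.21 ± 0.20 in Tac1, -0.04 ± 0.10 in Pdyn and 0.20 ± 0.09 in Chrm4. None of the 4 passed by edgeR, DESeq2 or limma voom, with 1 at an unadjusted p under 0.05, where 0.0339% of all genes were called.

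The wild-type baseline that these lines were compared with was itself split by housing group. At 6 months Drd1 had 7.99, 8.92 and 11.99 FPKM in the 8 wild types housed with Q20, against 5.22, 6.34 and 7.46 FPKM in the 8 housed with Q50. The groups did not overlap. The log2 difference of 0.59 ± 0.13 lay just outside the threshold by edgeR (adjusted p = 0.0512) and inside it by DESeq2 (adjusted p = 0.00679) and limma voom (adjusted p = 0.0250). Tac1 differed by 0.49 ± 0.18 (adjusted p = 0.330) and Pdyn by 0.35 ± 0.09 (adjusted p = 0.152), each with 6 of 8 wild types housed with Q20 above all those housed with Q50. Chrm4 differed by -0.02 ± 0.09. By edgeR 0 of 4 genes were called, with 3 at an unadjusted p under 0.05, where 0.0903% of all genes were called. Against either wild-type group alone, Q92 at 6 months still had the same 3 genes called. The log2 difference of Drd1 was -1.42 against wild types housed with Q20 and -0.83 against those housed with Q50, that of Tac1 was -1.73 and -1.24, and that of Pdyn was -0.72 and -0.37.

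The shorter repeats gave no call at 6 months. In Q20 the log2 differences from cage mates were -0.07 ± 0.13 for Drd1, -0.10 ± 0.18 for Tac1, -0.07 ± 0.09 for Pdyn and 0.10 ± 0.09 for Chrm4. None of the 4 had an unadjusted p under 0.05, and DESeq2 and limma voom also called 0, where 0.0169% of all genes were called by edgeR. In Q50 they were -0.24 ± 0.14 for Drd1, -0.40 ± 0.18 for Tac1, -0.22 ± 0.10 for Pdyn and -0.11 ± 0.09 for Chrm4. By edgeR 0 passed, 2 had an unadjusted p under 0.05, and DESeq2 and limma voom also called 0, where 0.0226% of all genes were called. Drd1 in Q50 had 3.27, 5.25 and 7.62 FPKM, with 4 of 8 libraries below every cage mate and 1 above. Against the mean of both wild-type groups instead, Drd1 (-0.54, adjusted p = 0.0383) and Pdyn (-0.39, adjusted p = 0.0313) were called lower in Q50.

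A straight line over repeat length was fitted to the 4 knock-in lines at 6 months, without wild types, and it sloped down for Drd1, Tac1 and Pdyn. The fall was not steady, since mean Drd1 was 3.496 FPKM in Q92 and 3.823 FPKM in Q140. Mean Tac1 was 9.749 and 11.77 FPKM in these lines, and mean Pdyn 8.693 and 8.575 FPKM. Per 100 repeats the log2 change was -1.04 ± 0.15 for Drd1 (adjusted p = 0.000117, edgeR), -1.24 ± 0.20 for Tac1 (adjusted p = 0.00032), -0.54 ± 0.09 for Pdyn (adjusted p = 0.000628) and -0.07 ± 0.08 for Chrm4 (adjusted p = 0.833). So 3 of 4 genes were called, where 1.35% of 17504 genes were called lower. With females alone none was called, at -0.99 for Drd1, -1.04 for Tac1 and -0.56 for Pdyn. Each line was its own cohort, so the p-values of the slope measure spread between libraries and not between lines. Q92 and Q140 also had no wild-type cage mates here, so long repeats and housing cannot be told apart.

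**Figure D2:**
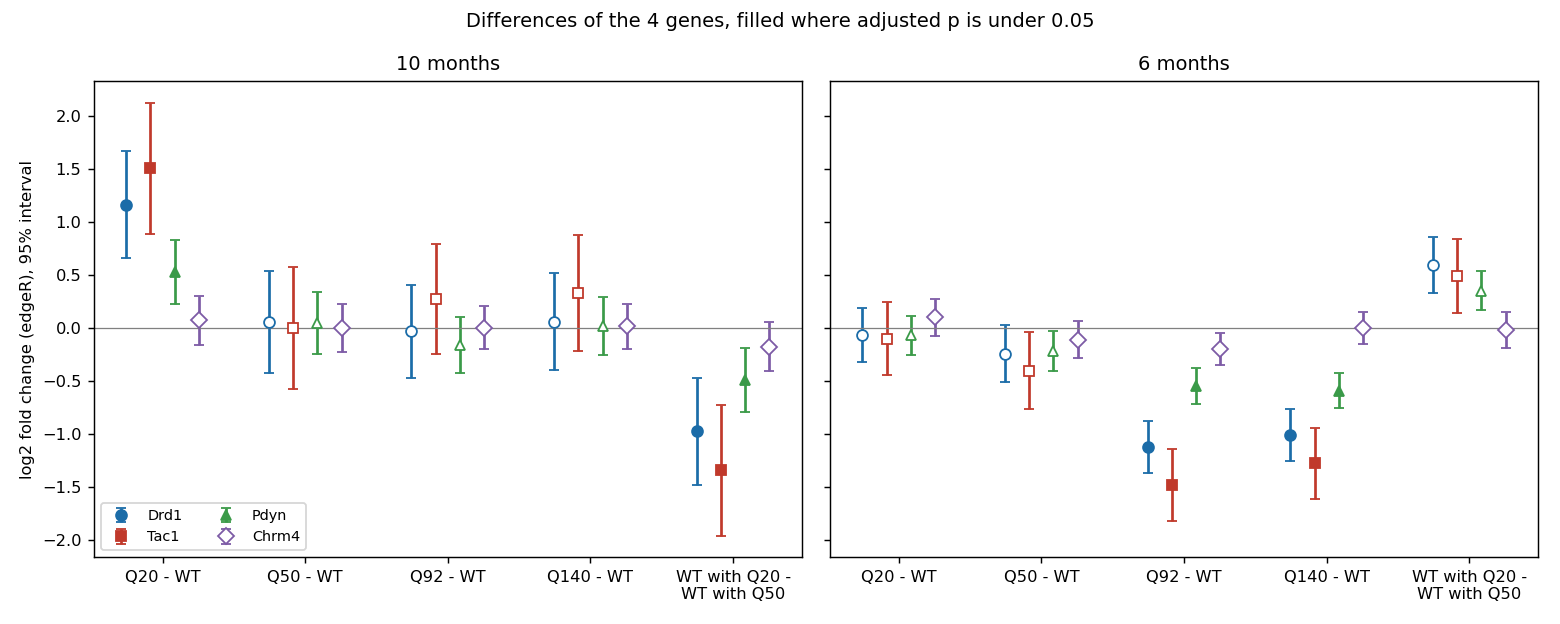
Log2 fold changes of the 4 genes (vertical axis, edgeR, with 95% intervals) for each line against wild type and for the 2 wild-type groups (horizontal axis), with filled symbols at an adjusted p under 0.05. At 10 months the filled symbols are Drd1, Tac1 and Pdyn in Q20, all positive, and between the wild-type groups, all negative, and at 6 months they are these 3 genes in Q92 and Q140, all negative.

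At 10 months the order of the groups was different. In Q20, Drd1 had 3.23, 7.85 and 17.1 FPKM as the lowest, median and highest of 8 libraries, against 3.08, 3.51 and 4.99 FPKM in the 8 wild types housed with them. Tac1 had 9.52, 29.1 and 53.2 FPKM in Q20, against 8.77, 10.1 and 11.001 FPKM in these wild types. Of the 8 Q20 libraries 6 were above every cage mate for Drd1 and 7 for Tac1. Pdyn had 7.96, 11.5 and 18.7 FPKM in Q20, against 7.74, 8.35 and 9.76 FPKM in wild types, with 5 of 8 above. Drd1 rose by 1.16 ± 0.26 (2.24-fold, adjusted p = 0.0149, edgeR), Tac1 by 1.51 ± 0.32 (2.84-fold, adjusted p = 0.0100) and Pdyn by 0.53 ± 0.15 (1.44-fold, adjusted p = 0.0428). Chrm4, at 8.23, 12.2 and 15.5 FPKM in Q20, against 8.60, 12.1 and 13.8 FPKM in wild types, differed by 0.07 ± 0.12 (adjusted p = 0.769). So 3 of 4 genes were called higher, where 2.56% of 17813 genes were called higher and 1.79% lower at 10 months in Q20. Without male Q20 replicate 4 at 10 months, Drd1 was no longer called (adjusted p = 0.0606). Pdyn was no longer called without any 1 of male Q20 replicates 1 to 4, female cage mates 1, 3 and 4 or male cage mates 2, 3 and 4 (adjusted p = 0.0527 to 0.137).

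Male and female Q20 libraries lay apart at 10 months. Drd1 had 10.6, 8.67, 9.80 and 17.1 FPKM in the 4 male Q20 libraries and 5.50, 7.02, 3.23 and 3.87 FPKM in the 4 female ones. Tac1 had 41.2, 31.7, 35.5 and 53.2 FPKM in males and 17.6, 26.4, 9.52 and 14.2 FPKM in females. No male library overlapped a female one for either gene. With males alone the log2 differences from cage mates were 1.54 for Drd1 (adjusted p = 6.38e-05, edgeR), 1.90 for Tac1 (adjusted p = 3.44e-06) and 0.85 for Pdyn (adjusted p = 6.38e-05). With females alone they were 0.55, 0.83 and 0.09 and none was called (adjusted p = 0.99958 for each). Whether the difference itself depended on sex was not tested.

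The cage mates of Q20 were low among all wild types of that age. At 10 months Drd1 had 3.08, 3.51 and 4.99 FPKM in wild types housed with Q20, against 3.46, 7.22 and 12.1 FPKM in wild types housed with Q50, and 4 of 8 lay below every one of them. Tac1, at 8.77 to 11.001 FPKM, lay in all 8 libraries below the range of 13.3 to 39.3 FPKM in wild types housed with Q50. Drd1 changed by -0.97 ± 0.26 (adjusted p = 0.0180, edgeR), Tac1 by -1.34 ± 0.31 (adjusted p = 0.00825), Pdyn by -0.49 ± 0.15 (adjusted p = 0.0427) and Chrm4 by -0.17 ± 0.12 (adjusted p = 0.388). That is 3 of 4 genes called lower between wild types, where 3.63% of all genes were called lower. Pdyn was no longer called without any 1 of female replicates 1, 3 and 4 or male replicates 2, 3 and 4 housed with Q20, or of female replicates 1 and 4 or male replicates 1 and 3 housed with Q50 (adjusted p = 0.0601 to 0.106). This comparison and that of Q20 share the 8 libraries of wild types housed with Q20, so they are not independent. Set against the mean of both wild-type groups, Q20 differed by 0.67 in Drd1 (adjusted p = 0.0882), 0.84 in Tac1 (adjusted p = 0.0814) and 0.28 in Pdyn (adjusted p = 0.235), with none called. With the L code added to the fit, none of the 4 genes was called in Q20 and 1, Tac1, between the wild types.

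In Q50, Q92 and Q140 at 10 months none of the 4 genes was called by edgeR, DESeq2 or limma voom, and none had an unadjusted p under 0.05. The shares of all genes called there were 0.0561%, 0.853% and 1.2%. In Q92 1546 genes were called against wild types housed with Q20 alone and 8 against those housed with Q50 alone, and in Q140 1084 and 85. The log2 differences in Q92 were -0.03 ± 0.22 for Drd1, 0.28 ± 0.27 for Tac1, -0.16 ± 0.14 for Pdyn and 0.00 ± 0.10 for Chrm4. Their 95% intervals reached from -0.47 to 0.41 for Drd1 and from -0.24 to 0.80 for Tac1. In Q140 the differences were 0.06 ± 0.23, 0.33 ± 0.28, 0.02 ± 0.14 and 0.02 ± 0.11 for the same genes in that order. The signs turned with the wild types used. Against those housed with Q20 alone the Q92 differences were 0.45 for Drd1 and 0.95 for Tac1 (adjusted p = 0.286 and 0.0544), and against those housed with Q50 alone they were -0.52 and -0.39 (adjusted p = 0.702 and 0.872). In Q140 they were 0.55 and 1.002 against the first group (adjusted p = 0.226 and 0.0590) and -0.43 and -0.34 against the second (adjusted p = 0.781 and 0.878). Tac1 had 10.2 to 11.6 FPKM in the 3 male Q140 libraries and 18.2 to 46.3 FPKM in the 4 female ones, with no overlap. In Q92 it had 10.4 to 17.2 FPKM in the 4 males and 9.16 to 35.8 FPKM in the 4 females, and in Q50 22.5 to 31.4 FPKM in males and 19.2 to 29.98 FPKM in females, with overlap in both lines. Every male was thus below every female for Tac1 in Q140 and above every female in Q20. Whether sex acted differently in these lines was not tested. Over all lines, the shared sex term called 0 of 4 genes at either age, also by DESeq2 and limma voom and with 0 at an unadjusted p under 0.05, where 3.49% of genes were called at 10 months and 2.37% at 6 months. At 10 months the trend over repeat length was -0.61 ± 0.23 per 100 repeats for Drd1, -0.50 ± 0.28 for Tac1, -0.31 ± 0.14 for Pdyn and -0.01 ± 0.08 for Chrm4. None passed by edgeR, DESeq2 or limma voom, 2 had an unadjusted p under 0.05, and 0.891% of all genes were called. With males alone the first 3 were called, at -1.48, -1.68 and -0.87. Under 1 of 11 alternatives the slope of each of these 3 was positive, at 0.17, 0.49 and 0.18, and not called. Drd1 had 8.67 to 17.1 FPKM in Q20 males and 3.50 to 4.21 FPKM in Q140 males. In females it had 3.23 to 7.02 FPKM in Q20 and 5.34 to 8.89 FPKM in Q140. As at 6 months, the test of the slope measured spread between libraries and not between lines.

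Set against each other at 10 months, Q140 and Q92 differed by 0.09 ± 0.27 in Drd1, 0.05 ± 0.31 in Tac1, 0.18 ± 0.16 in Pdyn and 0.01 ± 0.12 in Chrm4. None was called by edgeR, DESeq2 or limma voom or had an unadjusted p under 0.05, where 0.326% of all genes were called.

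Between the ages Drd1, Tac1 and Pdyn shifted most in wild types housed with Q20. All 4 genes were lower at 10 than at 6 months there, by -1.34 ± 0.21 for Drd1 (adjusted p = 3.72e-06, edgeR), -1.71 ± 0.26 for Tac1 (adjusted p = 3.13e-06), -0.76 ± 0.13 for Pdyn (adjusted p = 2.4e-05) and -0.34 ± 0.11 for Chrm4 (adjusted p = 0.0295), where 5.36% of 18187 genes were called lower. Drd1 lay between 3.08 and 4.99 FPKM at 10 months, against 7.99 to 11.99 FPKM at 6 months, with no overlap. Wild types housed with Q50 had 0 of 4 genes called, also by DESeq2 and limma voom and with 0 at an unadjusted p under 0.05, where 18.4% of genes were called, and Drd1 differed by 0.23 ± 0.20. In each knock-in line 1 or 2 genes passed. Tac1 was higher at 10 months in Q92 (0.97 ± 0.26, adjusted p = 0.00401) and in Q140 (0.82 ± 0.27, adjusted p = 0.0256), where 11.8% and 7.51% of genes were called higher. Q140 females had 10.7 to 17.3 FPKM of Tac1 at 6 months and 18.2 to 46.3 FPKM at 10 months. Q140 males had 8.58 to 11.2 and 10.2 to 11.6 FPKM. Q92 females had 8.90 to 11.7 and 9.16 to 35.8 FPKM, and Q92 males 6.90 to 11.2 and 10.4 to 17.2 FPKM. Neither the age differences nor the contrasts with age below were fitted for each sex alone. In Q50, Drd1 (0.53 ± 0.20, adjusted p = 0.0434) and Pdyn (0.36 ± 0.13, adjusted p = 0.0323) were higher, where 11.6% of genes were, and in Q20 Chrm4 was lower (-0.37 ± 0.11, adjusted p = 0.011), where 9.47% were. Without female Q140 replicate 4 at 10 months, which had 46.3 FPKM, the Tac1 difference in Q140 was 0.52 (adjusted p = 0.191), and without male replicate 3 at 6 months it was 0.76 (adjusted p = 0.0530). In Q50, Drd1 was no longer called without any 1 of 11 of the 16 Q50 libraries and Pdyn without any 1 of 5. In wild types housed with Q20, Chrm4 was no longer called without any 1 of 6 of their 16 libraries. With the L code as a factor within each age, 5 of the 9 age differences were still called, which were all 4 in wild types housed with Q20 and Tac1 in Q92. Those lost were Tac1 in Q140 (0.86, adjusted p = 0.0539), Drd1 and Pdyn in Q50 (adjusted p = 0.131 and 0.0773) and Chrm4 in Q20 (adjusted p = 0.0851). Tac1 in Q140 was also lost with limma voom (adjusted p = 0.119) and on log2(FPKM + 0.1) or + 1 (adjusted p = 0.0723 and 0.0732). Drd1 in Q50 was lost with limma voom too (adjusted p = 0.0646), and Drd1 and Pdyn there without the libraries above 13% mitochondrial counts (adjusted p = 0.121 and 0.0633). Animals of the 2 ages were separate libraries, and what else differed between the ages is not stated in the labels.

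Whether a line difference changed with age was tested as the difference at 10 months minus the difference at 6 months. For Tac1 this was 1.76 ± 0.32 in Q92 (adjusted p = 0.000129, edgeR), 1.61 ± 0.32 in Q140 (adjusted p = 0.00588), 1.61 ± 0.35 in Q20 (adjusted p = 0.0217) and -1.84 ± 0.36 between the wild types (adjusted p = 0.000789). Drd1 was called in the same 4 contrasts and Pdyn in Q140 and between the wild types. Chrm4 was called in none, with an unadjusted p above 0.05 in each. The shares of all genes called in those directions were 5.88%, 1.22%, 0.561% and 2.88%. In Q50 0 of 4 genes passed by edgeR, DESeq2 or limma voom, with 0 at an unadjusted p under 0.05, where 0% of all genes were called. Without female Q140 replicate 4 at 10 months the Drd1 contrast in Q140 was not called (adjusted p = 0.112), and the Pdyn contrast there was lost without any 1 of 6 Q140 libraries. In Q20 the Drd1 contrast was lost without any 1 of 5 Q20 libraries and the Tac1 contrast without male replicate 1 or 4 at 10 months (adjusted p = 0.0526 and 0.0721). With the L code as a factor, Drd1 and Tac1 in Q20 (adjusted p = 0.322 and 0.265) and Drd1 and Pdyn in Q140 (adjusted p = 0.0843 and 0.163) were not called, and on log2(FPKM + 0.1) or + 1 the same 2 genes in Q20 were not (adjusted p = 0.0611 to 0.0806). The wild types entered every one of these contrasts, so the contrasts share libraries.

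Because the 4 genes share a cell type in the striatum, their ratios to each other were compared within each library, on the log2 CPM scale, by exact permutation over libraries (two-sided, 72 tests adjusted together). At 6 months the log2 ratio of Tac1 to Chrm4 was -1.82 ± 0.28 in Q92 and -0.54 ± 0.41 in wild types, a difference of -1.28 (SD, n = 8 and n = 16, adjusted exact p = 2.45e-05, from the smallest exact p that 8 against 16 can give). Tac1 also fell more than Pdyn, by a log2 ratio difference of -0.93 (adjusted exact p = 2.45e-05). The ratio of Drd1 to Tac1 was higher in Q92 by 0.36 (adjusted exact p = 0.00225). All 6 ratios differed in both Q92 and Q140 at 6 months. In Q20 at 10 months the ratio of Tac1 to Chrm4 was -0.41 ± 0.67, against -1.64 ± 0.20 in cage mates, a difference of 1.23 (SD, n = 8 each, adjusted exact p = 0.00225). All 6 ratios differed there too. The 2 wild-type groups also differed from each other in 5 of 6 ratios at 10 months and in 4 of 6 at 6 months. Between wild types housed with Q20 and with Q50 the ratio of Tac1 to Chrm4 differed by -1.12 at 10 months (adjusted exact p = 0.00172) and by 0.53 at 6 months (adjusted exact p = 0.0176). In Q92 and Q140 at 6 months and in Q20 at 10 months the size of the change ran in the order Tac1, Drd1, Pdyn and Chrm4. The same order held between the wild types at 10 months (-1.34, -0.97, -0.49 and -0.17). It also held between the ages in wild types housed with Q20 (-1.71, -1.34, -0.76 and -0.34).

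Library by library, Drd1, Tac1 and Pdyn moved together and Chrm4 went its own way. Each library's log2 CPM was taken as its deviation from the mean of its group of line, housing, age and sex, which removes the group differences above. Over 95 libraries Drd1 and Tac1 had a Pearson r of 0.89 and a Spearman rho of 0.84, Drd1 and Pdyn 0.73 and 0.68, and Tac1 and Pdyn 0.73 and 0.70. Each had an adjusted permutation p of 3.68e-05 for r and 3.89e-05 for rho over 70 relations, from the smallest p that 100000 permutations can give. Without the 2 libraries farthest from the median of the first gene, r was 0.86, 0.71 and 0.71. Within the 8 L codes, r ranged over 0.70 to 0.95 for Drd1 and Tac1, 0.50 to 0.90 for Drd1 and Pdyn and 0.50 to 0.91 for Tac1 and Pdyn, and in the 9 libraries with names of another form it was 0.89, 0.56 and 0.69. Chrm4 had a Pearson r of 0.30 and rho of 0.24 with Drd1 (adjusted permutation p = 0.0997 and 0.117), 0.18 and 0.11 with Tac1 and 0.19 and 0.18 with Pdyn, none of which passed.

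**Figure D3:**
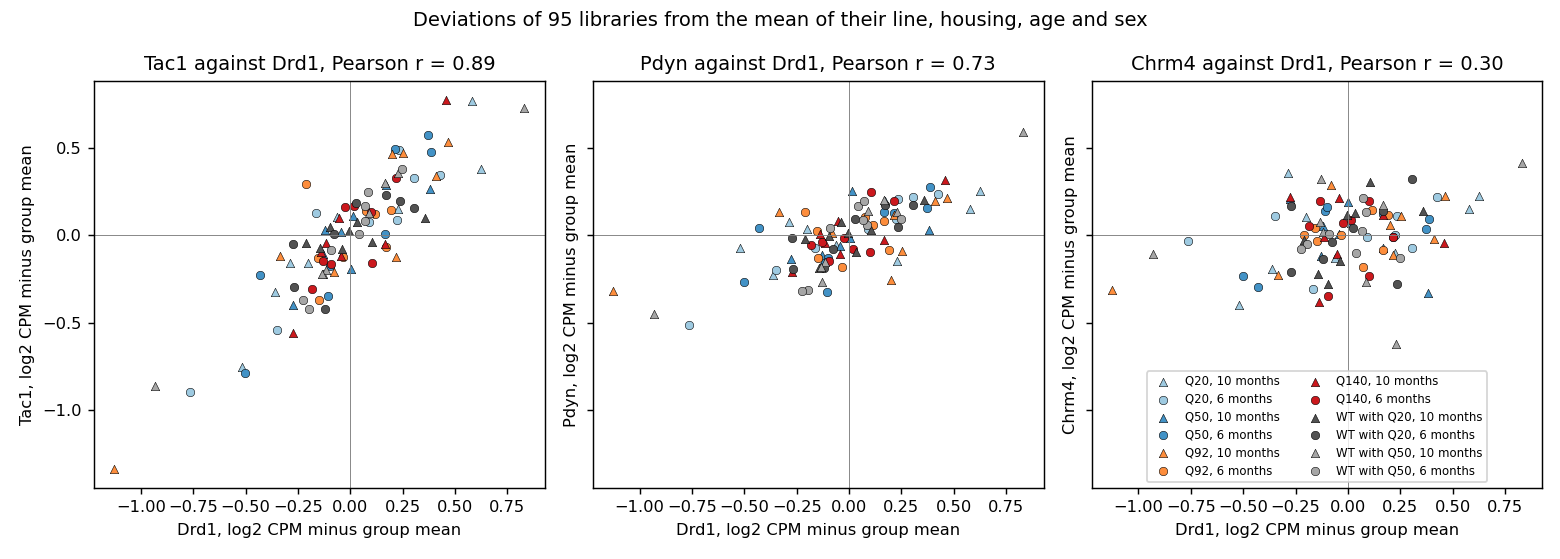
Deviation of Tac1, Pdyn and Chrm4 (vertical axes) against that of Drd1 (horizontal axes), in log2 CPM minus the mean of the library's group, 1 point for each of 95 libraries, coloured by line and housing, with triangles at 10 and circles at 6 months. The points of Tac1 follow those of Drd1 (r = 0.89), those of Pdyn do so with a shallower slope (r = 0.73), and those of Chrm4 scatter (r = 0.30).

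The genes most like each of the 4 were picked as the 5 highest Pearson correlations of these deviations among 18187 genes. For Drd1 they were Rgs9 (0.93, a striatal regulator of G protein signalling), Gng7 (0.92, the gamma subunit that partners Golf), Rarb (0.91, a retinoic acid receptor), Adcy5 (0.90, the striatal adenylyl cyclase) and Drd2 (0.89, the dopamine receptor of indirect-pathway neurons), and Tac1 ranked 7. For Tac1 they were Slc35d3 (0.91, which helps bring the D1 receptor to the membrane), Penk (0.90, the enkephalin precursor of indirect-pathway neurons), Rarb (0.90), Gng7 (0.89) and Drd1 (0.89). For Pdyn they included Ppp1r1b (0.85, the phosphatase inhibitor DARPP-32), Pde1b (0.80, a phosphodiesterase), Gng7 (0.80) and Adora2a (0.76, the adenosine receptor of indirect-pathway neurons). The 5 genes nearest to Chrm4 were others: Per1 (0.91, a clock gene), Midn (0.91), Fosb (0.87, an immediate early gene), Nab2 (0.86, a partner of the early growth response factors) and Kdm6b (0.86, a histone demethylase). Drd1 ranked 1881 in likeness to Chrm4, Pdyn 3462 and Tac1 3649. These are descriptions over the same 95 libraries.

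The receptor families showed which relatives moved with the members. Of 3 dopamine receptors with a mean count of at least 10 in both groups, 2 were called lower in Q92 at 6 months, Drd1 and Drd2, where 4.32% of such genes were called lower and 3.42% higher. Drd2 changed by -2.44 ± 0.33 (adjusted p = 2.75e-06, edgeR). Drd5, the other D1-like receptor, differed by -0.37 ± 0.14 (adjusted p = 0.0989). Drd3, the limbic D2-like receptor, had 0 to 0.0218 FPKM in Q92 libraries, against 0.128 to 0.735 FPKM in wild types, and it passed the filter on low counts only through the groups where it was higher, so it is not counted. Of 4 muscarinic receptors with such counts, Chrm4 included, 0 were called by edgeR. Chrm1, Chrm2 and Chrm3 differed by 0.03, -0.15 and 0.15 (adjusted p = 0.784, 0.133 and 0.130). Chrm5 averaged 4.38 counts in Q92 and 12.2 in wild types, too few in Q92 to be counted.

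In the peptide families, 3 of 4 tachykinin genes with a mean count of at least 10 in both groups were called lower in Q92 at 6 months, where 4.53% of all genes tested, without that limit, were called lower and 3.3% higher. They were Tac1, the substance P receptor Tacr1 (-1.55 ± 0.21, adjusted p = 3.18e-06, edgeR) and the neurokinin B receptor Tacr3 (-0.98 ± 0.21, adjusted p = 0.00119). Tac2, the neurokinin B precursor made by other neurons, differed by -0.15 ± 0.09 (adjusted p = 0.377). Of 8 opioid genes 4 were called lower, namely Pdyn, Penk (-1.69 ± 0.17, adjusted p = 1.78e-08), the mu receptor Oprm1 (-0.89 ± 0.24, adjusted p = 0.0132) and the kappa receptor Oprk1, which binds dynorphin (-0.32 ± 0.09, adjusted p = 0.0241). The median log2 difference of the 8 opioid genes was -0.43, against 0.00 over all genes tested. Of 7 peptide processing enzymes 1 was called, Pcsk2, which was higher by 0.15.

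The signalling partners of the receptors gave mixed counts. Of 20 genes of D1 receptor signalling 11 were called lower and 3 higher in Q92 at 6 months, with a median of -0.13, where 4.53% of all genes were lower and 3.3% higher. The 3 with the smallest p were Gng7 (-0.81 ± 0.10), Gnal (-0.40 ± 0.05, the alpha subunit of Golf) and Ppp1r1b (-0.81 ± 0.11). Of 12 genes of M4 receptor signalling 3 were lower and 3 higher, with a median of 0.04, among them Rgs9 (-1.57 ± 0.22), Adcy5 (-0.56) and Kcnj9 (0.21 ± 0.04, a potassium channel gated by G proteins). In Q140 the counts were 10 lower of 20 and 3 lower of 12, with none higher, where 2.13% of all genes were lower and 1.39% higher. In Q20 at 10 months 10 of the 20 D1 signalling genes were called higher and 1 lower, where 2.56% of all genes were higher and 1.79% lower. Between the wild types at 10 months 8 were lower, where 3.63% of all genes were.

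Genes of other striatal neurons moved in the same libraries. Of 4 further direct-pathway markers with a mean count of at least 10 in both groups, Slc35d3 (-1.83 ± 0.26) was called lower in Q92 at 6 months, and Ebf1, Eya1 and Sfxn1 were not called. Isl1, a transcription factor of direct-pathway neurons, averaged 4.25 counts in Q92 and 86.2 in wild types. The shares of all genes tested, without that limit on mean counts, were 4.53% called lower and 3.3% higher. All 5 measured indirect-pathway markers were lower, with a median of -1.69 (Penk, Drd2 and Adora2a at -2.19 ± 0.29 among them). Of 17 pan-striatal projection neuron markers 14 were lower, with a median of -0.56, of which Rarb (-0.81 ± 0.10), Bcl11b (-0.47) and Rasgrp2 (-0.66) had the smallest p. In Q140 at 6 months 5 of 5 indirect-pathway and 14 of 17 pan-striatal markers were called lower, where 2.13% of all genes were. In Q20 at 10 months 4 of 5 and 13 of 17 were called higher, where 2.56% of all genes were. Between the wild types at 10 months 4 of 5 and 11 of 17 were called lower, where 3.63% of all genes were. The lists share genes, such as Drd2, Penk, Rgs9, Adcy5 and Ppp1r1b, so their counts overlap.

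Markers of other cells that a cortical block could hold also moved with Drd1, Tac1 and Pdyn. Of 6 measured forebrain cholinergic markers, 2 had a mean count of at least 10 in both groups of each comparison, the acetylcholine synthase Chat and the choline transporter Slc5a7. Both were called lower in Q92 and Q140 at 6 months and between the wild types at 10 months, and higher in Q20 at 10 months. Slc5a7 changed by -2.45 ± 0.31 in Q92 at 6 months (adjusted p = 8.65e-07, edgeR). The summed level of all 6 was 0.295 to 0.763 FPKM in Q92 and 0.333 to 1.01 FPKM in Q140 at 6 months, against 4.07 to 8.86 FPKM in wild types housed with Q20 and 2.08 to 5.60 FPKM in those housed with Q50. At 10 months it was 0.446 to 8.89 FPKM in Q20, against 0.279 to 0.680 FPKM in wild types housed with Q20. In the 3 groups with the lowest sums, which were Q92 and Q140 at 6 months and wild types housed with Q20 at 10 months, Lhx8, Slc10a4 and Gbx1 averaged under 0.1 FPKM, and no marker was at 0 in all libraries of any group. The summed 17 pan-striatal markers had 416 to 459 FPKM in Q92 and 418 to 485 FPKM in Q140 at 6 months, against 576 to 752 FPKM in wild types housed with Q20 and 482 to 605 FPKM in those housed with Q50. At 10 months they had 412 to 899 FPKM in Q20, against 414 to 469 FPKM in its cage mates. In Q92 at 6 months, 4.53% of all genes tested were called lower and 3.3% higher, without that limit on mean counts. There 3 of 3 olfactory bulb markers with a mean count of at least 10 in both groups and 3 of 6 layer 6 markers were also lower. None of the 5 oligodendrocyte, 5 astrocyte, 5 microglia and 5 meningeal markers was called. In the same comparison 4 of 8 interneuron markers were lower and 2 higher, 3 of 6 thalamic markers were lower and 2 of 5 choroid plexus markers were higher. Of 5 claustrum and 6 dentate granule neuron markers 1 each was lower. Cortical excitatory markers were present in every library at a sum of 369 to 534 FPKM (a check of the labelled tissue), and 4 of 8 were called higher in Q92 at 6 months.

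The deviations of the members followed those of these marker lists to unequal degrees. Here a list was taken as the mean log2 CPM of its genes, not as the sum of their FPKM. With the pan-striatal mean Pearson r and Spearman rho were 0.92 and 0.90 for Drd1, 0.83 and 0.80 for Tac1 and 0.79 and 0.73 for Pdyn, each with an adjusted permutation p of 3.68e-05 for r. For Chrm4 they were 0.32 and 0.26 (adjusted permutation p = 0.0641 and 0.065). With the cholinergic mean r was 0.82 for Drd1, 0.85 for Tac1, 0.67 for Pdyn and 0.12 for Chrm4, and rho was 0.76, 0.79, 0.61 and 0.09. With the mean of the cortical excitatory markers r was -0.59 for Drd1 (rho -0.57), -0.67 for Tac1 (rho -0.61) and -0.35 for Pdyn (rho -0.32, adjusted permutation p = 0.025 for r and 0.0232 for rho), while for Chrm4 it was 0.05 (rho 0.10). With the indirect-pathway mean r was 0.88 for Drd1, 0.89 for Tac1, 0.77 for Pdyn and 0.28 for Chrm4. For layer 6 markers it was 0.47, 0.55, 0.41 and 0.15, and for thalamic markers 0.42, 0.51, 0.40 and -0.07. Of these, only those of Chrm4 did not pass. Chrm4 passed with the microglia mean alone (r -0.30, rho -0.29, adjusted permutation p = 0.0271 and 0.0309). Some further lists passed with Drd1, Tac1 or Pdyn. The part that the share of striatal or other adjoining tissue in a cortical sample had in the line differences was not tested.

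**Figure D4:**
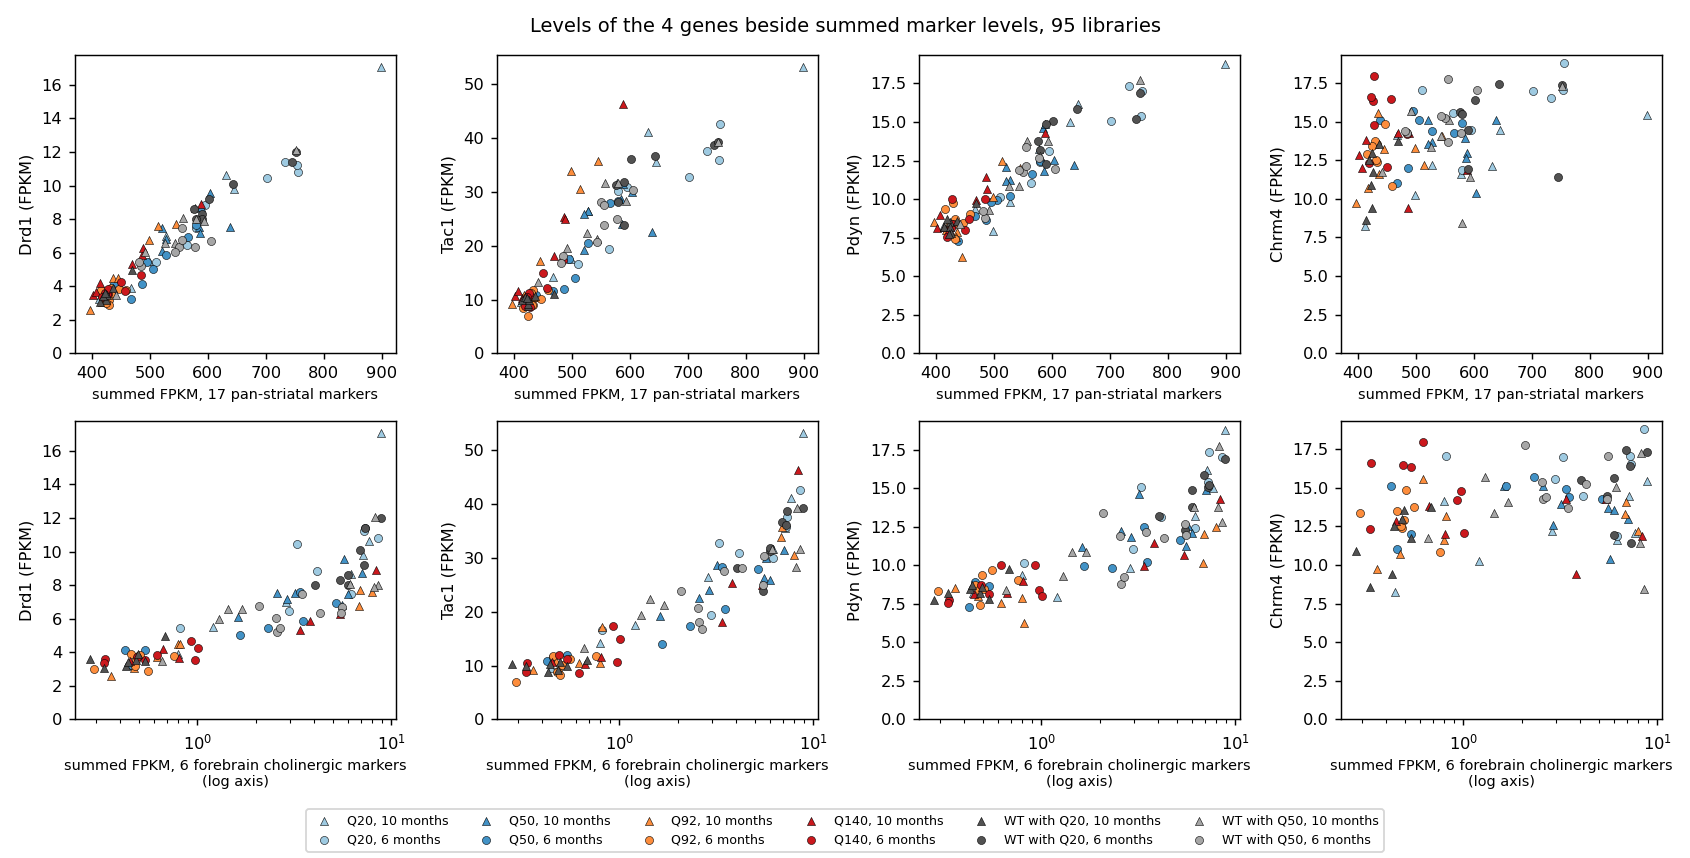
FPKM of the 4 genes (vertical axes) against the summed FPKM of 17 pan-striatal markers (top row) and of 6 forebrain cholinergic markers (bottom row, log axis), 1 point for each of 95 libraries, coloured by line and housing, with triangles at 10 and circles at 6 months. Drd1, Tac1 and Pdyn are low where both sums are low, as in Q92 and Q140 at 6 months and in wild types housed with Q20 at 10 months, and the points of Chrm4 scatter.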

How the data were processed

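Messenger RNA libraries of mouse cortex were made, per the labels' protocols, from total RNA of frozen tissue extracted with the Qiagen miRNeasy kit. For each gene the authors deposited an estimated count, of which 67.0% of the nonzero values were exact whole numbers as printed, and an FPKM. The submitters' processing notes name CASAVA 1.8.2. Aligner, counting tool, build, annotation and strand setting were not given in the sources used here, so reads shared with overlapping genes cannot be told apart. The 4 genes and the gene lists (153 of 156 list genes were in the table) were chosen with earlier results of these data known.

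In R 4.3.3, the rounded estimated counts were filtered with edgeR 4.0.16 (filterByExpr with a minimum count of 10 and a minimum total of 15) and scaled by TMM. The robust quasi-likelihood test then ran on all libraries of an age with sex as a covariate. It covered 17716 genes at 6 months and 17813 at 10 months, and a joint fit of both ages, for the age differences and contrasts, covered 18187. Called means an adjusted p under 0.05 (Benjamini-Hochberg). Only the comparison of Q92 with wild types at 6 months was tried on simulated counts, and the other fits were not. Ratio tests and correlations used scipy 1.17.1 and numpy 2.4.6. Alternatives were DESeq2 1.42.0, limma 3.58.1 (voom, and log2(FPKM + 0.1) or + 1), DESeq2 size factors, other filters on low counts, the replicate number as a block, the L code as a factor (the 9 libraries with other names as 1 level), each sex alone, other wild-type groups, no libraries above 13% mitochondrial counts, and each library left out. Each sex alone was not run in the joint fit of both ages.

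Besides the 4 genes, the text names up to 3 called members of a list by smallest p, members of the receptor and precursor families, and the 5 genes most like each of the 4, of which 1 is not reported here. Depth was 30334161 to 41082838 counts per library. Among 141 pairs of replicates within a group, the closest differed by a chi-square of 3.84 per degree of freedom, so no pair was counted as 1 sample. Pairs across groups were not checked. Counts of list genes restricted to a mean count of at least 10 in both groups were added after seeing the data.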

Additional observations from a re-analysis of the deposited data

Results flagged for a closer look

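In 23 groups of 4 libraries and 4 genes, 3 of 92 tests set 1 library apart from the other 3. Chance alone does so in about 1 in 20 tests, and the genes share their libraries. Drd1 was 5.43 FPKM in female Q20 replicate 3 at 6 months, against 10.5 to 11.4 FPKM in the other 3. Tac1 was 17.2 FPKM in male Q92 replicate 3 at 10 months, against 10.4 to 10.9 FPKM. Pdyn was 14.9 FPKM in male Q50 replicate 2 at 10 months, against 11.8 to 12.2 FPKM.

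In 10 of 20 contrasts the difference at 10 months was unlike that at 6 months (log2 ± SE, edgeR, adjusted p). In Q20 the change was 1.23 ± 0.29 for Drd1 (adjusted p = 0.0260) and 1.61 ± 0.35 for Tac1 (adjusted p = 0.0217). In Q92 it was 1.097 ± 0.26 for Drd1 (adjusted p = 0.00273) and 1.76 ± 0.32 for Tac1 (adjusted p = 0.000129). In Q140 it was 1.08 ± 0.26 for Drd1 (adjusted p = 0.0194), 1.61 ± 0.32 for Tac1 (adjusted p = 0.00588) and 0.61 ± 0.16 for Pdyn (adjusted p = 0.0333). Between wild types housed with Q20 and with Q50 it was -1.57 ± 0.29 for Drd1 (adjusted p = 0.000426), -1.84 ± 0.36 for Tac1 (adjusted p = 0.000789) and -0.85 ± 0.18 for Pdyn (adjusted p = 0.00225). The causes were not tested.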

How the results depend on the processing

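Of 18 counts of calls, recomputed 224 times under alternatives other than left-out libraries, 17 values moved by over 1.5 times. The causes were not tested, and some alternatives, such as each sex alone, also held fewer libraries. No called difference of the 4 genes changed sign under any alternative, in 2471 values with 1 library left out and 391 others. In Q92 at 6 months 3 to 4 genes were called under every alternative. With the L code as a factor the calls were 0 in Q20 at 10 months, 1 between the wild types at 10 months, 5 of the 9 age differences and 6 of the 10 contrasts with age. With females alone they were 0 in Q140 and in the repeat trend at 6 months, and 0 in Q20 and between the wild types at 10 months. With males alone the repeat trend at 10 months had 3. Against the mean of both wild-type groups Q50 at 6 months had 2 and Q20 at 10 months 0. Between the wild types at 6 months 1 gene, Drd1, was called with DESeq2 size factors, DESeq2, limma voom, a mean of at least 1 CPM, only the groups compared, or no libraries above 13% mitochondrial counts. With 1 library left out the calls ranged over 1 to 3 in Q20 at 10 months, 2 to 3 between the wild types at 10 months, 0 to 1 between them at 6 months, 7 to 10 for the age differences and 8 to 11 for the contrasts with age, and the other counts stayed as they were. The replicate block left 9 age differences and moved no count by over 1.5 times. Replicate numbers did not pair the libraries, since same-numbered libraries of other lines had a median correlation of deviations of 0.01 in 235 pairs. The number of all genes called moved more, for example in Q20 at 10 months, where 456 genes were called higher and 319 lower, against 48 in all with the L code and 1 with females alone, 2332 with males alone and 1788 with limma voom. Switching between FPKM and CPM moved none of 48 levels of the 4 genes by as much as the SD of the group. It moved 28 of 276 summed levels of the gene lists by that much.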
